A study of Mus musculus with 14 samples.

Results

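Potassium channel genes were described in bulk brain RNA of aged APP/PS1 mice, a transgenic model of amyloid deposition. The members were the genes whose symbol began with Kcn followed by a subfamily letter and a number, and whose reads exceeded 1 CPM (reads per 1e6 counted) in every mouse of at least 1 group. This rule kept 74 of the 92 rows with such a symbol, out of 43346 genes in the table. RNA was sequenced from brain tissue containing hippocampus and cortex of 14 female mice, 23 months old, on a strain labelled C57BL/6;SJL-Tg. Non-transgenic littermates, labelled wild type (NTG, n = 4, mice 7 to 10), and APP/PS1 mice (n = 5, mice 16 to 20) were labelled as non-treated. The study's methods describe such animals as given vehicle. A further 5 APP/PS1 mice (mice 21 to 25) drank CP2, a tricyclic pyrone that partially inhibits mitochondrial complex I, at 25 mg/kg per day in 0.1% PEG from 9 months of age, that is for 14 months. The label gives the APP/PS1 genotype as +/+, and the promoters that drive the transgenes are not given in the sources used here. The tissue held many cell types, so that fewer cells of a type and less RNA per cell cannot be told apart in these data.

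Potassium channels set the resting potential and end the action potential. Voltage-gated (Kv) channels open on depolarisation, calcium- and sodium-activated channels follow the ion load of spiking, inward rectifiers (Kir) hold cells near the potassium equilibrium and let astrocytes clear potassium, and two-pore-domain channels carry background leak. Hyperexcitability is a known feature of amyloid mouse models, and in microglia potassium efflux is a known trigger of the NLRP3 inflammasome.

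Total counts per mouse ranged from 70548781 to 106235625, and the lowest count of any member in any mouse was 83, so counting error was low. Mouse App (1330 to 1490 CPM in NTG, 1360 to 1500 in APP/PS1) did not separate the groups, so it gave no check of the genotype labels, and transcripts of the transgenes themselves were not analysed here. The summed level of 5 neuronal markers lay between 4010 and 4900 CPM in all mice. The 6 microglial markers summed to 203 to 212 CPM in NTG, 397 to 521 in APP/PS1 and 312 to 486 in CP2-treated mice, with 6 of 6 higher in APP/PS1 at an adjusted p under 0.05. APP/PS1 mouse 16 stood apart from the other mice. Its 6 striatal markers summed to 1490 CPM against 97.9 to 196 in the other mice, while its thalamic sum (195 CPM) and dentate gyrus sum (24.2 CPM) were the lowest. It was the highest of all mice for 22 members and the lowest for 23. The dentate gyrus markers were low in the whole group, with sums of 95 to 136 CPM in NTG and 24.2 to 90.6 in APP/PS1 (67 to 90.6 without mouse 16), and so were the hippocampal CA field markers (291 to 318 and 230 to 283 CPM), both without overlap.

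All 74 members were abundant enough to be tested in each comparison, 73 passed the CPM limit in all 3 groups, and Kcnj5 passed it in 2. Just inside the limit, by the lowest CPM in the best group, were Kcnu1 (2.02), Kcnj5 (1.97) and Kcne4 (1.43), and just outside were Kcnk5 (0.956), Kcnh8 (0.893) and Kcnq1 (0.58). Per kilobase of exon, the highest level belonged to Kcnab2, the cytoplasmic beta subunit of Kv1 channels, at 81.3 CPM per kilobase over all mice. The astrocytic inward rectifier Kcnj10 (Kir4.1) followed at 59.3. Among the 8 highest were also the leak channel Kcnk1 (31.1), inward rectifier Kcnj4 (30), GIRK subunit Kcnj9 (27.1) and Kv4 partner Kcnip2 (26.7). The authors' own RPKM values gave the same 8 genes, but they rest on the same reads and are no independent check. The lowest member, Kcnj5, reached 0.452. The 74 members summed to 5042 ± 218 CPM in NTG (SD, n = 4), 4648 ± 276 in APP/PS1 (n = 5) and 4843 ± 183 in CP2-treated APP/PS1 mice (n = 5).

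**Figure D1:**
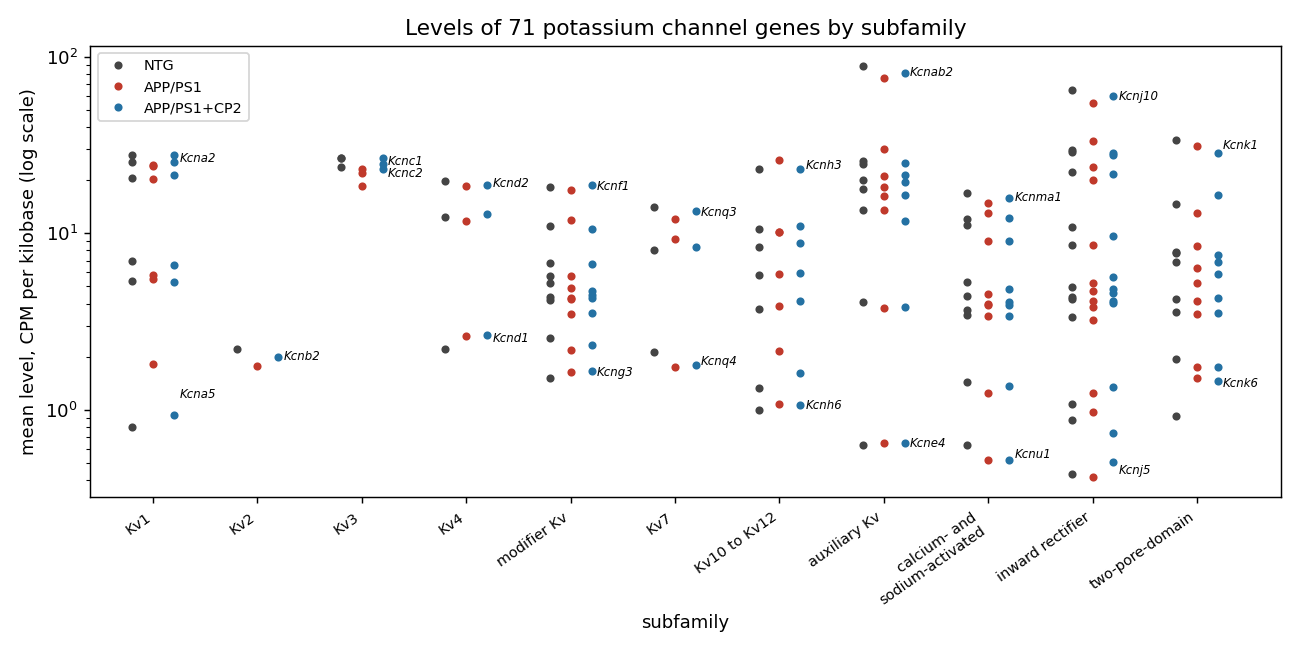
Mean level of 71 of the 74 potassium channel genes in CPM per kilobase (log axis) by subfamily, with 1 point per gene and group; the highest and lowest plotted gene of each subfamily are named. Levels span from 0.452 for Kcnj5 to 81.3 for Kcnab2, and the 3 groups lie close together within each subfamily.

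Of the members with an adjusted p under 0.05 in APP/PS1 against NTG (edgeR), Kcnk6 and Kcnb2 had no promoter window listed. Promoter windows are shown for the others, Kcna2, Kcnj16 and Kcnk12, and for Kcnj2, which did not pass with all mice. Each spans a RefSeq start site (GRCm38.p6), mostly upstream of it, 5′ to 3′ on the gene's strand, and capitals mark a GC box, GGGCGG or CCGCCC on the other strand. Kcnj16 and Kcnj2 are neighbours on chromosome 11, their gene spans 38.2 kb apart on the plus strand, and they are shown because their levels differed from NTG in opposite directions. The Kcnj16 window, at chr11:110967783-110968082, is the first of 4 listed for this gene, the Kcnj2 window lies at chr11:111065914-111066213, the Kcna2 window at chr3:107101317-107101616 and the Kcnk12 window, on the minus strand, at chr17:87797945-87798244.
Kcnj16: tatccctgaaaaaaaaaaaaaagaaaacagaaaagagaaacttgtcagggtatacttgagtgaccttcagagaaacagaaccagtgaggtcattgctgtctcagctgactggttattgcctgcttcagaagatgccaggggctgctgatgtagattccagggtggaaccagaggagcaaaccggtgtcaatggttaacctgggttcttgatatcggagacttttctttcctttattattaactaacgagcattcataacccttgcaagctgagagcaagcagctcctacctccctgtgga
Kcnj2: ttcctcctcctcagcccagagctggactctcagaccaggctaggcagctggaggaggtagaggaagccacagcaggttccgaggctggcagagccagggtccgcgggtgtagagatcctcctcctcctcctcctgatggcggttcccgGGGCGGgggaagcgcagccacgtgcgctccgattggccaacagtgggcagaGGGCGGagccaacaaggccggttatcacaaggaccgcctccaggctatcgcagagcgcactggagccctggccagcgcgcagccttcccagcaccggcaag
Kcna2: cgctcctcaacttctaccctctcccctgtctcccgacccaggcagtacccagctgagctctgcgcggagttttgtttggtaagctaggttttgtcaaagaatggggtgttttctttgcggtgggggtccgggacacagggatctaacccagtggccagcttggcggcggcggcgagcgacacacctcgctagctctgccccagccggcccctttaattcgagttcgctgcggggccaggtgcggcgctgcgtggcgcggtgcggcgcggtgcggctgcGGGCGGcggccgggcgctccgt
Kcnk12: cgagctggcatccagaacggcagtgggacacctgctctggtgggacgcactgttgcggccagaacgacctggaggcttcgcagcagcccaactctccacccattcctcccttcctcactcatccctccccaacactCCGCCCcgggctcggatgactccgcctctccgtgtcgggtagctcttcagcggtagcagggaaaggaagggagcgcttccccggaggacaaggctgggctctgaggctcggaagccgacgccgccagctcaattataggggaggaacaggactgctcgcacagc
The Kcnj2 window held 2 GC boxes and 66.7% G and C, whereas this Kcnj16 window held 0 and 44.3%. The other Kcnj16 windows, not shown, held 0, 0 and 1 GC boxes, with 48%, 53% and 44% G and C. The Kcna2 and Kcnk12 windows held 1 each, with 66.7% and 64.3% G and C. A GC box was present in 49.3% of the 75 windows listed for 52 of the 74 members and in 35.7% of the 32851 windows of all genes. The TATAAA motif, searched on both strands, was present in 5.33% and 13.6%, respectively, and the palindrome TGACGTCA in 0 member windows and 1.79% of all. These matches describe the letters of the windows only.

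The comparison of APP/PS1 with NTG asked how the model differed from its littermates. The two-pore-domain gene Kcnk6 rose in APP/PS1 mice, from 3.77 ± 0.744 to 7.14 ± 0.791 CPM (mean ± SD, n = 4 and 5). Kcnj16, Kcnk12, Kcnb2 and Kcna2, which encode an astrocytic inward rectifier subunit, a leak channel and a pair of neuronal delayed rectifiers, fell. These 5 members passed an adjusted p under 0.05 (edgeR's quasi-likelihood test with Benjamini-Hochberg adjustment over 16417 genes), that is 6.76% of the members against 5.68% of all genes tested. By direction, 1 member was higher, with 4.34% of all genes, and 4 were lower (5.41% of members), with 1.34% of all genes. At an unadjusted p under 0.05, the threshold of the study, 18 members passed (24.3%, against 18.7% of all genes). Of these, 15 were lower (20.3%, against 8.05%) and 3 were higher (4.05%, against 10.6%). The log2 fold change was negative for 50 of the 74 members (67.6%, against 51.2% of all genes) and positive for 24 (32.4%, against 48.8%), with a median of -0.10 against -0.0042 over all genes. Negative log2 fold changes were also found for 5 of 5 dentate gyrus markers (median -1.03, 1 adjusted call) and 3 of 4 CA field markers (0 adjusted calls), and without mouse 16 the adjusted calls were 3 and 2, all lower (edgeR). The 5 neuronal and 4 excitatory neuronal markers all had negative values, with medians of -0.031 and -0.099 and 0 adjusted calls (0 at an unadjusted p under 0.05, edgeR). The part of these markers in the members' values was not tested. Without mouse 16, 59 members had negative and 15 positive log2 fold changes, and the signs over all genes were not counted without it. Without mouse 16 the adjusted call count was 9, with 2 higher and 7 lower. All genes gained calls there too, with 1486 of 16523, against 932 of 16417 with all mice. Without NTG mouse 8 or mouse 9 the member count was 2, with 646 and 578 genes called in all. Without NTG mouse 7 or mouse 10 it was 3, with 776 and 651 genes called in all. Kcna2 and Kcnk6 passed whichever mouse was omitted (9 of 9 fits).

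The values of 6 members did not overlap between APP/PS1 and NTG (8.11%, against 10% of all genes). Kcnk6 and Kcnj2 were the 2 that lay higher (2.7%, against 5.93% of all genes), and Kcnj16, Kcnk12, Kcna2 and Kcnc1 the 4 that lay lower (5.41%, against 4.11%).

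**Figure D2:**
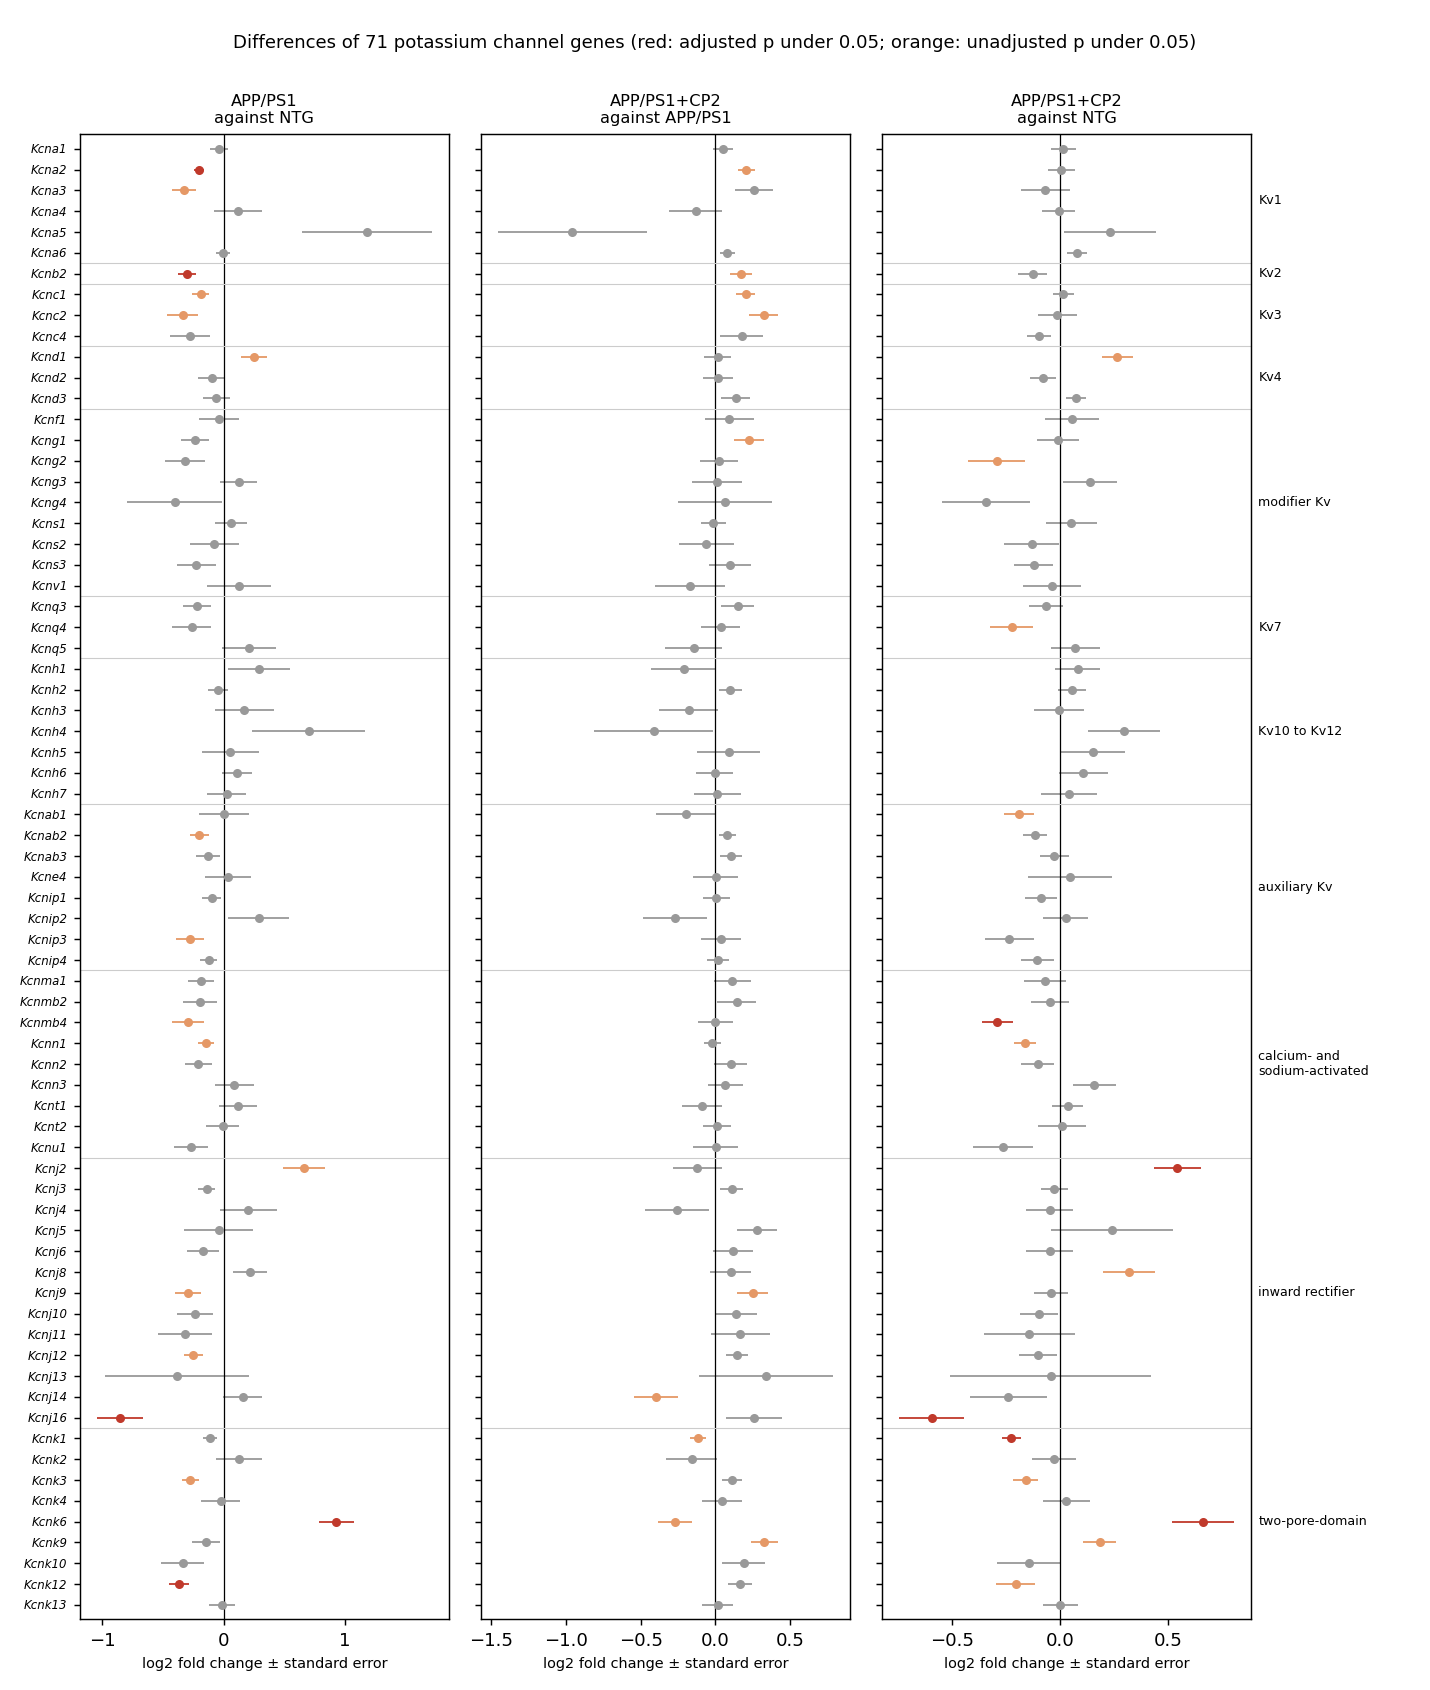
Log2 fold change ± standard error of 71 of the 74 potassium channel genes in the 3 comparisons, ordered by subfamily; each panel has its own horizontal scale. Red marks an adjusted p under 0.05 and orange an unadjusted p under 0.05; over all 74 genes, 50 values were negative against NTG in untreated mice and 53 were positive with CP2 against untreated APP/PS1 mice.

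Among the 9 two-pore-domain genes, 7 had negative log2 fold changes against NTG. Kcnk6 (ENSMUSG00000046410, chr7:29221928-29232522 in mm10) encodes TWIK-2, a leak channel known in macrophages as the potassium efflux route upstream of the NLRP3 inflammasome. It measured 2.99, 3.60, 4.78 and 3.73 CPM in NTG mice, 7.15, 6.53, 6.20, 8.09 and 7.72 in APP/PS1 mice, and 6.53, 7.01, 5.61, 5.46 and 5 in CP2-treated APP/PS1 mice. Every APP/PS1 mouse, treated or not, lay above every NTG mouse. The log2 fold change of APP/PS1 against NTG was 0.93 (SE 0.143, adjusted p = 0.0038, edgeR). The microglial marker sum moved with it, and the part of that sum in the Kcnk6 difference was not tested. Other members known for microglia or immune cells were not adjusted calls. Kcnk13, which encodes THIK-1 and carries the resting potassium conductance of microglia, measured 10.6 to 12 CPM in NTG and 9.34 to 12.9 in APP/PS1 (log2 fold change -0.017, adjusted p = 0.957, edgeR). Kcna3, which encodes Kv1.3, a channel of lymphocytes and microglia that neurons also express, measured 12.4 to 14.6 CPM in NTG and 9.25 to 13.2 in APP/PS1 (log2 fold change -0.33, SE 0.101, adjusted p = 0.0985, edgeR), and without mouse 16 its adjusted p was 0.012.

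Kcnk12 (ENSMUSG00000050138, chr17:87745837-87797994) encodes THIK-2, a relative of THIK-1 that is largely retained inside the cell. Its levels were 13, 13.2, 15 and 11.8 CPM in NTG, 9.76, 10.5, 9.65, 11.1 and 9.92 in APP/PS1, and 10, 10.3, 12.1, 12.5 and 12.1 in CP2-treated mice. All APP/PS1 mice lay below all NTG mice (log2 fold change -0.37, SE 0.0826, adjusted p = 0.0272, edgeR), and the call was kept in 4 of the 9 fits that left out a mouse. Kcnk3 (TASK-1, an acid-sensitive leak channel) averaged 29.6 ± 1.57 CPM in NTG and 24.4 ± 2.38 in APP/PS1, with 1 APP/PS1 mouse inside the NTG range (adjusted p = 0.0584, edgeR). A transcript on the opposite strand covers 5.76% of its exons, and since the strand setting of the counting is not given in the sources used here, reads of such a pair cannot be told apart.

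Of the 13 inward rectifiers, 9 had negative log2 fold changes. Kcnj16 (ENSMUSG00000051497, chr11:110968033-111027968) encodes Kir5.1, which forms no channel alone and pairs with Kir4.1, the product of Kcnj10, in astrocytes. Kcnj16 measured 26.5, 31.6, 39.1 and 37.5 CPM in NTG, 11.8, 17.2, 23.4, 22.4 and 17.7 in APP/PS1, and 21.8, 21.8, 30.4, 18 and 18.8 in CP2-treated mice. The 5 APP/PS1 values were all below the NTG values (log2 fold change -0.85, SE 0.191, adjusted p = 0.0278, edgeR). Its call was kept in 4 of the 9 fits that left out a mouse, and without mouse 16, the lowest, the log2 fold change was -0.73 with an adjusted p of 0.00817. Its partner Kcnj10 overlapped, with 316 to 386 CPM in NTG and 231 to 372 in APP/PS1 (log2 fold change -0.24, SE 0.146, adjusted p = 0.441, edgeR). The 5 astrocyte markers did not move together, with 3 positive and 2 negative log2 fold changes and 1 adjusted call, lower in APP/PS1 (1 lower and 1 higher without mouse 16); their sums ran from 3770 to 4520 CPM in NTG and from 3300 to 3690 in APP/PS1, and their part in the Kcnj16 difference was not tested.

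Kcnj2 (ENSMUSG00000041695, chr11:111066164-111076821) encodes Kir2.1, the classical strong inward rectifier of neurons, vessels and microglia. It measured 16.4, 20.6, 16.7 and 18.9 CPM in NTG, 40.6, 24.1, 24.5, 31.3 and 22.3 in APP/PS1, and 28.1, 30.8, 27.6, 24 and 21 in CP2-treated mice. All APP/PS1 mice lay above all NTG mice, with mouse 16 the highest. The log2 fold change was 0.66 (SE 0.172, adjusted p = 0.0552, edgeR), and without mouse 16 it was 0.50 with an adjusted p of 0.0231. The related Kcnj12 (Kir2.2) averaged 13.6 ± 1.34 CPM in NTG and 11.4 ± 0.58 in APP/PS1 (unadjusted p = 0.00852, adjusted p = 0.099, edgeR), and Kcnj4 (Kir2.3) measured 121 CPM in mouse 16 and 49.7 to 71 in the other mice. Kcnj9, a subunit of the G protein-gated GIRK channels, averaged 126 ± 10 CPM in NTG and 103 ± 16.2 in APP/PS1 (adjusted p = 0.168, edgeR), with 1 APP/PS1 mouse inside the NTG range. Kcnj8, the pore of the pericyte ATP-sensitive channel, averaged 2.37 ± 0.167 and 2.74 ± 0.452 CPM (adjusted p = 0.469, edgeR). Kcnj13, a channel of choroid plexus epithelium, ranged from 1.15 CPM in mouse 16 to 9.22 in NTG mouse 8, and the summed choroid plexus markers ranged from 25.2 to 1360 CPM across mice; 49.1% of its exon bases are shared with Gigyf2 on the opposite strand.

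**Figure D3:**
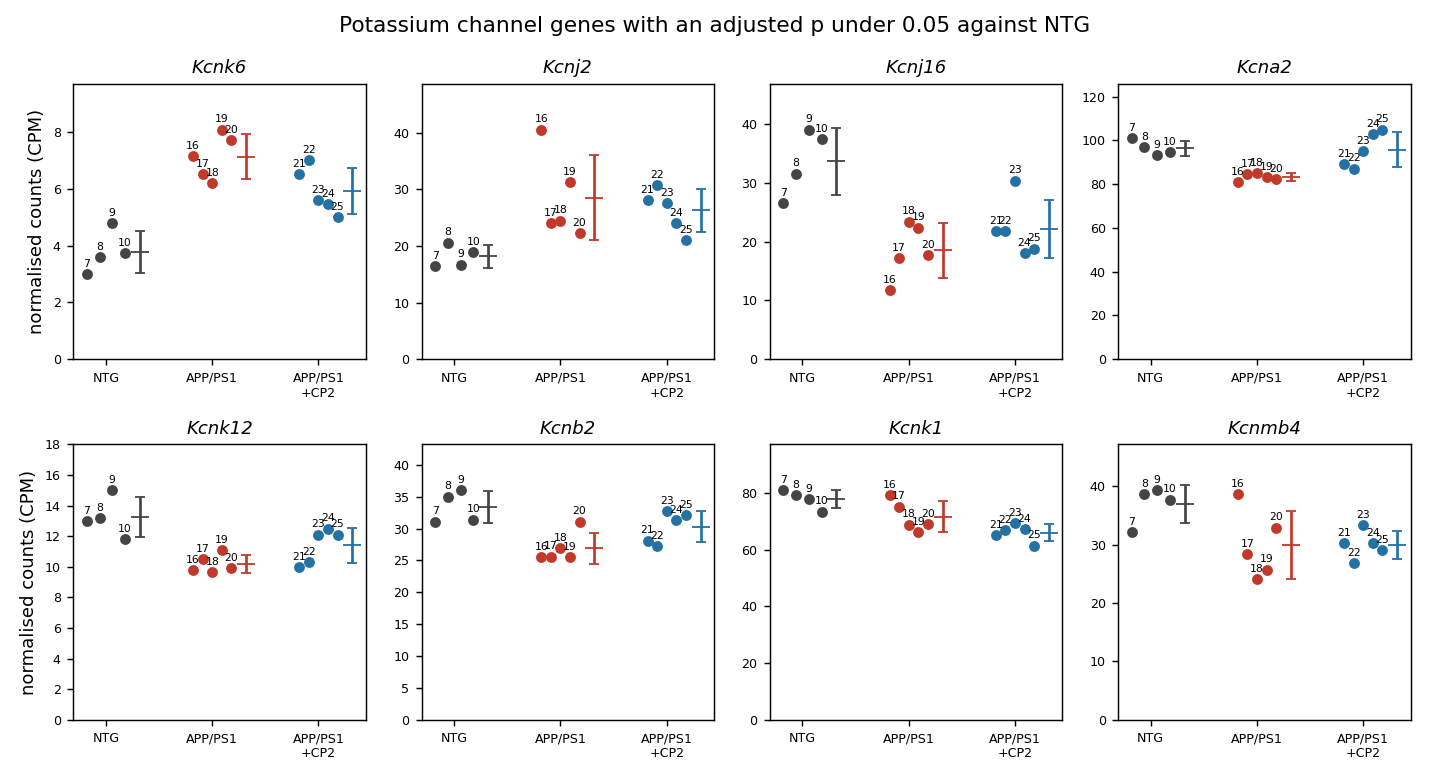
CPM of the 8 potassium channel genes with an adjusted p under 0.05 against NTG in untreated or CP2-treated APP/PS1 mice. Each point is 1 mouse, numbered; the dash and bar beside each group are the mean ± SD (n = 4, 5 and 5). Kcnk6 of every APP/PS1 mouse exceeds the highest NTG mouse at 4.78 CPM, and Kcna2 of the 5 untreated APP/PS1 mice lies below the lowest NTG mouse at 93.2 CPM.

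Among Kv1 genes, Kcna2 (ENSMUSG00000040724, chr3:107101567-107106879) encodes Kv1.2, an axonal channel that limits excitability. It measured 101, 97, 93.2 and 94.6 CPM in NTG, 80.8, 84.6, 85, 83.2 and 82.4 in APP/PS1, and 89.1, 87.1, 95.1, 103 and 105 in CP2-treated mice. The APP/PS1 values lay in a narrow range below NTG (log2 fold change -0.20, SE 0.0404, adjusted p = 0.0151, edgeR), a small difference with a small spread. Kcna1 (Kv1.1) and Kcna6 (Kv1.6) had log2 fold changes of -0.04 and -0.0066 (adjusted p = 0.835 and 0.967, edgeR). Kcna5 (Kv1.5) had the highest log2 fold change of all members, 1.18 (SE 0.537, adjusted p = 0.277, edgeR), through mouse 16 at 14.3 CPM beside 1.86 to 4.17 in the other 13 mice, and it was 0.33 without that mouse. Of the Kv2 delayed rectifiers of neuronal cell bodies, Kcnb2 (ENSMUSG00000092083, chr1:15287254-15723750) averaged 33.4 ± 2.51 CPM in NTG and 26.9 ± 2.42 in APP/PS1 (log2 fold change -0.30, SE 0.076, adjusted p = 0.0472, edgeR). One APP/PS1 mouse, mouse 20 at 31.1 CPM, reached the NTG range of 31.1 to 36, and the call was kept in 1 of 9 fits that left out a mouse.

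All 4 Kv3 genes, which give fast-spiking neurons their rapid repolarisation, had negative log2 fold changes, with a median of -0.31 (-0.21 without mouse 16) and 0 adjusted calls. Kcnc1 measured 236 to 255 CPM in NTG and 186 to 232 in APP/PS1, without overlap (log2 fold change -0.19, SE 0.0691, adjusted p = 0.163, edgeR). Kcnc2 measured 117 to 169 and 87.7 to 130 CPM (adjusted p = 0.179, edgeR). Mouse 16 was the lowest for each of the 4 genes, and without it the log2 fold change was -0.15 for Kcnc1 and -0.26 for Kcnc2. The 6 thalamic markers also had negative log2 fold changes, with a median of -0.48 (-0.33 without mouse 16) and sums of 314 to 496 CPM in NTG and 195 to 386 in APP/PS1, and 0 adjusted calls; the part of tissue sampling in the Kv3 values was not tested. The 4 interneuron markers were Pvalb and Erbb4 with Gad1 and Gad2, which mark GABAergic neurons in general and not fast-spiking cells alone. They summed to 822 to 907 CPM in NTG, to 1110 in mouse 16 and to 679 to 772 in the other 4 APP/PS1 mice, each below every NTG mouse. In mouse 16 Gad1 measured 527 and Gad2 443 CPM, but Pvalb 44.5, beside 43.2 to 193 in the other mice. Over all mice 0 of these markers was an adjusted call (edgeR, 0 at an unadjusted p under 0.05). Without mouse 16 all 4 had negative log2 fold changes and 1, Gad1, was an adjusted call, lower. Their part in the Kv3 values was not tested.

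In the other subfamilies no member passed the adjusted threshold with all mice in the fit, and Kcnmb4, Kcnip3 and Kcnab1 passed without mouse 16. Of the calcium- and sodium-activated channels, 7 of 9 had negative values, among them Kcnmb4 (ENSMUSG00000054934, chr10:116417861-116473878), the neuronal beta subunit of the BK channel, and Kcnn1, which encodes SK1. Kcnmb4 averaged 36.9 ± 3.33 CPM in NTG and 29.9 ± 5.89 in APP/PS1 (adjusted p = 0.253, edgeR), and its adjusted p was 0.0342 without mouse 16. Kcnn1 had an unadjusted p of 0.044. Antisense transcripts cover 20.8% and 10.7% of the Kcnmb4 exons. Of the 8 auxiliary Kv subunits, Kcnab2 and Kcnip3, a calcium sensor that binds Kv4 channels, were lower at unadjusted p of 0.0235 and 0.0365. Without mouse 16 Kcnip3 had an adjusted p of 0.0264, and Kcnab1, another Kv1 beta subunit, had a log2 fold change of -0.27 (adjusted p = 0.0136, edgeR) in place of 0.0016 with that mouse, in which it measured 194 CPM beside 90.1 to 120 in the others. The Kv4 gene Kcnd1 was higher at an unadjusted p of 0.0406, with 11.7 ± 0.941 CPM in NTG and 13.8 ± 1.76 in APP/PS1. Of the Kv10 to Kv12 genes, 6 of 7 had positive values with a median of 0.11, and 0 passed an unadjusted p under 0.05. This direction turned without mouse 16, where 3 of 7 were positive and the median was -0.032. For Kcnh4 it measured 20.7 CPM beside 3.26 to 7.14 in the others, and for Kcnh1 125 beside 47 to 78. The 4 Kv7 and 9 modifier Kv genes had medians of -0.14 and -0.076 (-0.18 and -0.12 without mouse 16).

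**Figure D4:**
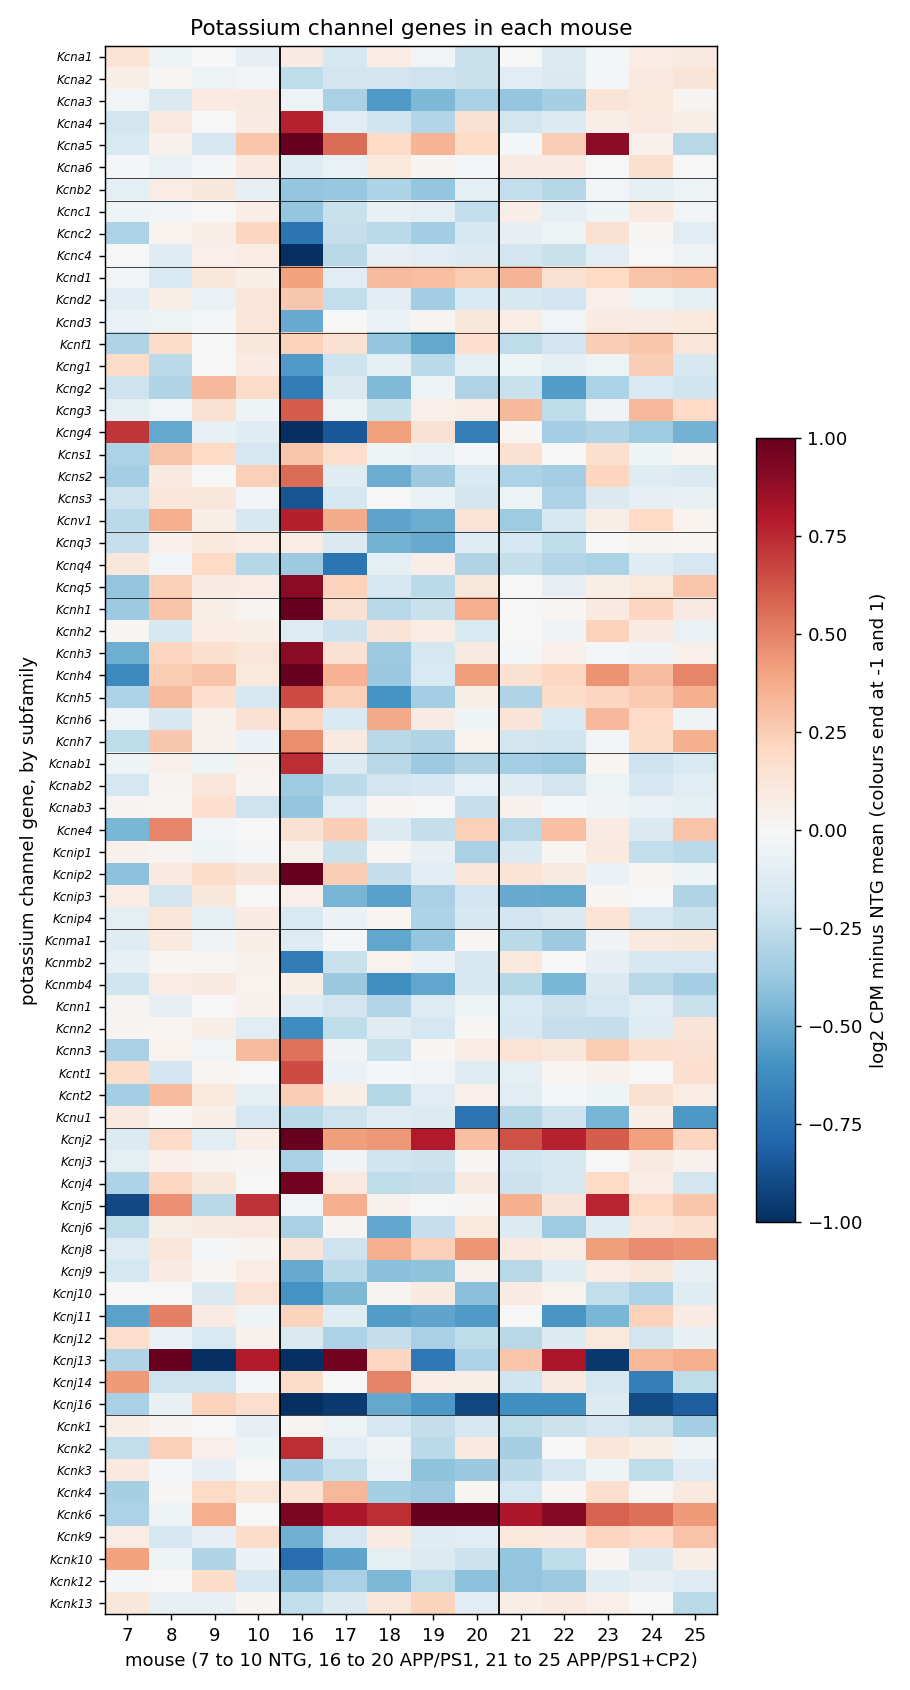
Log2 CPM of 71 of the 74 potassium channel genes in each of the 14 mice, minus the mean of the 4 NTG mice, with colours ending at -1 and 1. Kcnk6 and Kcnj2 are red in all APP/PS1 mice with and without CP2, Kcnj16 is blue in them, and mouse 16 holds most of the darkest cells, being the highest for 22 and the lowest for 23 of all 74 genes.

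The comparison of CP2-treated with untreated APP/PS1 mice asked what the compound changed. No member passed the adjusted threshold (edgeR, lowest adjusted p = 0.744 over 16407 genes tested), where 0.00609% of all genes did, and DESeq2 called 0 members as well. At an unadjusted p under 0.05, 10 members passed (13.5%, against 6.55% of all genes), 7 of them higher with CP2 (9.46%, against 2.88%) and 3 lower (4.05%, against 3.66%). This comparison shares the untreated APP/PS1 mice with the one against NTG, so that each mouse of that group enters both. A positive log2 fold change was found for 53 members (71.6%, against 47.5% of all genes), with a median of 0.049 against -0.0060, and for 65 members without mouse 16, with a median of 0.084. The signs over all genes were not counted without mouse 16. With 1 CP2-treated mouse left out, the count of 10 became 5 without mouse 24 and 6 without mouse 23 or mouse 25. The share of all genes at an unadjusted p under 0.05 was not counted in these fits.

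The values of 3 members did not overlap between the groups (4.05%, against 1.14% of all genes). Each of the 3 was higher with CP2, as were 0.549% of all genes, and 0 were lower, as were 0.591%. Kcna2 averaged 83.2 ± 1.72 CPM in APP/PS1 and 95.9 ± 8.1 with CP2 (log2 fold change 0.21, SE 0.0561, unadjusted p = 0.00368). CP2-treated mice 21 and 22 lay below the NTG range for Kcna2 and mice 24 and 25 above it. Kcnk9, the acid-sensitive leak channel TASK-3, measured 12.6, 15.7, 18.6, 16.2 and 16.4 CPM in APP/PS1 and 19, 18.8, 20.4, 20.1 and 21.4 with CP2 (log2 fold change 0.33, SE 0.0893, unadjusted p = 0.00376), while NTG mice measured 15.6 to 20. Kcnc2 measured 87.7 to 130 CPM in APP/PS1 and 135 to 161 with CP2 (log2 fold change 0.32, SE 0.0939, unadjusted p = 0.00567), and without mouse 16 the log2 fold change was 0.24 with an unadjusted p of 0.0013. None of these 3 was an adjusted call.

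All 4 Kv3 genes had positive values with CP2, with a median of 0.21 (0.15 without mouse 16), and Kcnc1 averaged 212 ± 18.7 and 244 ± 13.6 CPM (unadjusted p = 0.0098). Kcnb2, Kcnj9 and the modifier subunit Kcng1 were also higher at unadjusted p of 0.0381, 0.037 and 0.0437, and without mouse 16 these were 0.0701, 0.0761 and 0.0783. The 6 thalamic markers had positive log2 fold changes too, with a median of 0.51 and 0 adjusted calls; without mouse 16, 5 of 6 were positive with a median of 0.33. The thalamic sums were 195 to 386 CPM in APP/PS1 and 319 to 486 with CP2. The 5 dentate gyrus markers were positive as well (sums of 24.2 to 90.6 and 87.2 to 97 CPM, 0 adjusted calls, 1 at an unadjusted p under 0.05, edgeR). Without mouse 16, 4 of 5 were positive with a median of 0.224, and 3 had an unadjusted p under 0.05, all higher. The dentate gyrus sums in APP/PS1 were then 67 to 90.6 CPM. Of the 4 interneuron markers, 1 was positive and 3 were negative, with a median of -0.10 and 0 adjusted calls. Without mouse 16, 3 of them were positive and 1 negative, with a median of 0.057, and 1 had an unadjusted p under 0.05, higher (edgeR). The part of these lists in the members' values was not tested. Lower with CP2 were Kcnj14 (Kir2.4; 2.57 ± 0.374 and 1.95 ± 0.359 CPM, unadjusted p = 0.0197), Kcnk6 (7.14 ± 0.791 and 5.92 ± 0.826 CPM, log2 fold change -0.27, unadjusted p = 0.036) and Kcnk1 (71.7 ± 5.37 and 66 ± 2.95 CPM, unadjusted p = 0.0481). Without mouse 16 the unadjusted p was 0.0303 for Kcnj14, 0.0514 for Kcnk6 and 0.116 for Kcnk1, so that 1 of the 3 passed. Kcnj16 averaged 18.5 ± 4.64 and 22.1 ± 4.92 CPM (unadjusted p = 0.198) and Kcnj2 28.6 ± 7.55 and 26.3 ± 3.82 (unadjusted p = 0.478), with overlapping values.

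The comparison of CP2-treated APP/PS1 with NTG mice asked which differences were present under treatment. Kcnk6 and Kcnj2 were higher and Kcnk1, Kcnmb4 and Kcnj16 lower, 5 members at an adjusted p under 0.05 (6.76%, against 6.02% of 16416 genes tested, edgeR). The 2 higher members were 2.7% of members, against 4.56% of all genes, and the 3 lower ones 4.05%, against 1.46%. Kcnk6 had a log2 fold change of 0.66 (SE 0.145, adjusted p = 0.0218, edgeR) and Kcnj2 of 0.54 (SE 0.11, adjusted p = 0.0153), both without overlap of the groups. Kcnj16 had a log2 fold change of -0.60 (SE 0.152, adjusted p = 0.0431, edgeR), with CP2-treated mouse 23 at 30.4 CPM inside the NTG range.

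Kcnk1 (ENSMUSG00000033998, chr8:125995102-126030683) encodes TWIK-1, a leak channel of astrocytes and neurons. It measured 81, 79.3, 77.9 and 73.5 CPM in NTG, 79.3, 75.2, 68.9, 66.2 and 69 in APP/PS1, and 65.2, 67, 69.4, 67.2 and 61.5 with CP2. All CP2-treated mice lay below all NTG mice (log2 fold change -0.23, SE 0.0443, adjusted p = 0.0128, edgeR), and the call was kept whichever mouse was omitted (9 of 9 fits); an antisense transcript covers 8.01% of its exons. Kcnmb4 averaged 29.9 ± 2.34 CPM with CP2 (log2 fold change -0.29, SE 0.0717, adjusted p = 0.0372, edgeR). Kcnj2 was kept in 8 of these 9 fits, Kcnk6 in 5, and Kcnj16 and Kcnmb4 in 2 each. The count of 5 became 2 without NTG mouse 8, 9 or 10 or without CP2-treated mouse 21 or 22, and 3 without mouse 24 or 25. In these fits 572 to 818 genes were called in all, against 989 with all mice. Kcnd1 averaged 13.9 ± 0.729 CPM with CP2 and lay above all NTG mice (log2 fold change 0.27, SE 0.0706, adjusted p = 0.0512, edgeR). At an unadjusted p under 0.05, 15 members passed (20.3%, against 20.2% of all genes), with 5 higher (6.76%, against 11.6%) and 10 lower (13.5%, against 8.59%). The groups did not overlap for 5 members (6.76%, against 9.61%), with 3 higher (4.05%, against 6%) and 2 lower (2.7%, against 3.61%). The log2 fold change was positive for 30 members (40.5%, against 49.4%) and negative for 44 (59.5%, against 50.6%), with a median of -0.028. The 5 dentate gyrus markers also had negative log2 fold changes against NTG (median -0.426, 2 adjusted calls, edgeR). So had 3 of 4 CA field markers (1 adjusted call), with sums of 235 to 270 CPM beside 291 to 318 in NTG. Of the 6 thalamic markers, 3 were positive and 3 negative. The part of these markers in the members' values was not tested.

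Among genes of potassium handling outside the channel family, 11 of 12 auxiliary subunits and partners and all 11 pumps and transporters listed were tested. Against NTG, 0 of either list passed the adjusted threshold in untreated APP/PS1 mice. At an unadjusted p under 0.05, 6 of 11 partners passed, 2 higher and 4 lower, and 2 of 11 pumps and transporters, both lower (edgeR). Of all genes tested, 18.7% passed, 10.6% higher and 8.05% lower. Without mouse 16 the partner Amigo1 passed the adjusted threshold, lower (log2 fold change -0.179, adjusted p = 0.0495, edgeR), beside 0.099 with all mice. Abcc9 encodes the sulfonylurea receptor SUR2 that pairs with Kcnj8 in pericytes. With all mice in the fits, it was the single adjusted call of these lists. It was higher in CP2-treated mice than in NTG (mean 10.6 CPM against 6.28, log2 fold change 0.77, SE 0.171, adjusted p = 0.024, edgeR). In untreated APP/PS1 mice it averaged 9.16 CPM (log2 fold change 0.55 against NTG, unadjusted p = 0.0157, adjusted p = 0.144, edgeR). Kcnj8 averaged 2.94 ± 0.4 CPM with CP2 (adjusted p = 0.161, edgeR). The 5 markers of pericytes and endothelium summed to 156 to 176 CPM in NTG. Their sums were 183 to 282 CPM in untreated APP/PS1 mice and 219 to 253 with CP2, so both groups lay above NTG. Against NTG, 4 of the 5 had positive log2 fold changes in each group and 1, Cldn5, had negative ones. Rgs5 averaged 59.5 CPM in NTG, 85.9 in untreated APP/PS1 mice and 103 with CP2, and Cldn5 30.1, 28.7 and 27.4. The sum does not separate pericytes from endothelium, and its part in the Abcc9 and Kcnj8 values was not tested.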

How the data were processed

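RNA of 14 mice was sequenced. The authors aligned reads to mm10 with TopHat and counted them per Ensembl gene with featureCounts, allowing a read to count on each gene it overlaps; the strand setting is not given in the sources used here. The deposited gene counts were used for the tests, and with the deposited gene lengths for the levels per length. The deposited RPKM values, which rest on the same reads, were only set beside the order of these levels. Genes above 1 CPM (scaled by size factors, as in the filter the study used) in every mouse of at least 1 compared group were fitted, 2 groups at a time, with edgeR 4.0.16 (R 4.3.3; TMM factors, quasi-likelihood test, Benjamini-Hochberg adjustment over all genes tested), and CPM in the text is TMM-scaled. On simulated counts for 16417 genes of APP/PS1 against NTG, 90% of 100 genes changed by 1 on the log2 scale were called. Most members differed by less, with quartiles of their log2 fold changes at -0.249 and 0.0798. Each gene was drawn on its own, so differences shared by the genes of a mouse were left out. The 90% therefore does not give the share of such smaller differences that would be called. DESeq2 1.42.0, limma 3.58.1, other filters, RLE factors, a fit of all groups and leaving out each mouse were the alternatives. Mouse 16 was singled out among these after the data were seen. The members, the marker lists and the named genes (each adjusted call, the smallest p-values, the highest levels and members known for 1 cell type) were chosen with earlier results of these data known. Replicates are separate mice by the study's account. The lowest chi-square per degree of freedom of the 26 pairs within a group was 8.25. So no pair differed by counting error alone, as repeat runs of 1 library would. This value cannot tell 2 tissue pieces of 1 mouse from 2 mice. The labels give no batch. Exon overlaps are from GENCODE M21, in which all 74 members were found, and promoter windows from RefSeq. No NTG mouse given CP2 was analysed here. The single values of 3 members and of some other genes are not reported here, and the plots show 71 members; counts and medians are over all 74.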

Additional observations from a re-analysis of the deposited data

Results flagged for a closer look

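In 66 groups of 22 members checked for 1 mouse far from the others of its group, 5 values stood apart. Chance gives about 1 in 20 groups, so the count of 5 in 66 is near that rate. Kcnip2, which encodes a Kv4 channel partner rich in striatum, measured 180 CPM in APP/PS1 mouse 16 beside 71.8 to 101 in the other APP/PS1 mice, and 63.8 CPM in NTG mouse 7 beside 90.7 to 96.3. The value of mouse 7 lay at the limit of the rule. Kcnj4, another striatum-rich member, measured 121 CPM in mouse 16 beside 51.7 to 65.9. Kcnb2 measured 31.1 CPM in APP/PS1 mouse 20 beside 25.5 to 26.9 in its group. Kcnk13 measured 9.21 CPM in CP2-treated mouse 25 beside 11.1 to 11.8. The 2 values of mouse 16 stand beside its striatal marker sum of 1490 CPM, whose part in them was not tested.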

How the results depend on the processing

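The count of potassium channel genes at an adjusted p under 0.05 in APP/PS1 against NTG, 5, came with 932 calls over all genes. It was 9 with DESeq2 (1667 calls over all genes) and 8 with limma-voom and sample quality weights (1563 calls). With 1 mouse left out it ran from 2 to 9, and the calls over all genes from 578 to 1486. Under the other settings it was 4 to 7, with 968 to 1297 calls over all genes. The cause of these changes was not tested. The unadjusted count of 18 ran from 11 (without NTG mouse 10) to 24 (without mouse 16). For CP2-treated against untreated APP/PS1 mice the adjusted count was 0 in every setting and the unadjusted count of 10 ran from 5 to 12 with 1 mouse left out. For CP2-treated APP/PS1 against NTG the adjusted count of 5 (989 calls over all genes) was 2 with all 3 groups in one fit (703 calls). It ran from 2 to 6 with 1 mouse left out, and the calls over all genes from 572 to 1123. The unadjusted count of 15 ran from 10 to 18. All genes at an unadjusted p under 0.05 were counted only in the main fits with all mice. They numbered 3069, 1074 and 3312 in the 3 comparisons. With 1 mouse left out the medians kept their signs, from -0.12 to -0.063, 0.035 to 0.084 and -0.074 to -0.0057, respectively, and the first was -0.13 with limma-voom. Of the 24, 18 and 23 named genes per comparison, 0 called values changed sign. In the second comparison no value was called in any setting, so none could. With 1 mouse left out, 7 of 216, 7 of 180 and 19 of 207 values changed sign without being called. In the first comparison 18 values lost and 8 gained an adjusted call, and in the third 19 lost and 1 gained it. No paired analysis was possible because the groups share no replicate numbers. The lowest count of a member in any mouse was 83.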

Other observations

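Potassium channel genes below the CPM limit were not tested in the comparisons. Kcnn4, the intermediate-conductance calcium-activated channel of microglia and other immune cells, measured 0.375, 0.357, 0.202 and 0.235 CPM in NTG, 0.53, 0.552, 0.95, 0.705 and 0.686 in APP/PS1, and 0.514, 0.508, 0.326, 0.358 and 0.403 in CP2-treated mice. All untreated APP/PS1 mice lay above all NTG mice (0.292 ± 0.0863 and 0.685 ± 0.168 CPM, mean ± SD). Its difference was not tested. Kcne2, a channel subunit of choroid plexus, ranged from 0.046 CPM in mouse 16 to 4.68 in mouse 17, the mice whose summed choroid plexus markers were 26.8 and 1360 CPM.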
